A study of Mus musculus with 12 samples.

Results

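Truncated LINE-1 (L1) copies under m6A intervals are the 9119 annotated L1 loci shorter than 6000 bp that share at least 1 bp with an interval of the study's m6A table. They were drawn from 836507 L1 loci and 4929385 repeat loci of all families on the mouse assembly GRCm39, and from 74299 intervals. No measured value of a locus entered this choice, although the libraries behind the intervals are not given in the sources used here and may be the same ones. They are set against the 7315 L1 loci of 6000 bp or longer under intervals, called full-length here for their length alone, and against the 814973 truncated L1 loci outside intervals.

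The cells were E14TG2a mouse embryonic stem cells grown with LIF, PD0325901 and CHIR99021. KO cells lack Alkbh5, ΔcIDR cells carry the Alkbh5 del-cIDR genotype, and WT cells carry neither change per the labels. RNA of the chromatin-associated fraction, depleted of ribosomal RNA, was fragmented and immunoprecipitated with an m6A antibody. The 6 columns, 2 replicates per genotype, were read as immunoprecipitated because the submitters describe an m6A matrix, although no column name says so. The ΔcIDR columns are headed KI and were assigned as the only genotype left, and both KO columns are headed KO6, so they may come from 1 line. With 0 columns read as input, fewer RNA molecules and less m6A per molecule cannot be told apart. The labels do not state separate cultures, so p-values measure only the spread between these samples. The tables name no genes, so the marker genes of stem cells and the targeted gene were not checked here.

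L1 is a retrotransposon that copies itself through an RNA intermediate. Reverse transcription starts at the 3′ end of that RNA and often stops early, which leaves copies that lack their 5′ end, the internal promoter included. Such copies can be transcribed as parts of other transcripts. m6A is a common mark of RNA kept on chromatin in embryonic stem cells, transposon RNA among it, and ALKBH5 is an enzyme that removes it.

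Reads in repeats came to 20922839 to 26267351 per library, and reads in the truncated L1 loci to 309218 to 397509. They made up 1.45% and 1.70% of repeat reads in KO, 1.71% and 1.43% in ΔcIDR, and 1.61% and 1.73% in WT. The deposited signal is the read count times 1 factor per library, set by the m6A-modified spike-in RNA. That factor made 1 read worth 1.97 and 1.45 units in KO, 3.33 and 3.20 in ΔcIDR, and 2.32 and 2.45 in WT. Levels below are this signal unless another scale is named. The spike-in rests on 814 to 1870 reads, fewer in every library than the 1729 to 5127 reads of the unmodified spike-in RNA, and the KO factors differ most within a genotype.

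The copies were longer at the median than truncated L1 loci outside intervals, at 1330 bp against 315 bp. Of the 814973 loci outside intervals, 555504 were below 500 bp. Of the copies, 1638 were below 500 bp, 1920 measured 500 to 1000 bp and 2459 measured 1000 to 2000 bp. A further 1929 measured 2000 to 4000 bp and 1173 measured 4000 to 6000 bp. Each class holds its lower bound and not its upper one. One interval lay over 6866 of the copies, and up to 7 lay over a single copy. The 12026 intervals concerned covered a median of 30.5% of a copy. By class that share was 51.2% below 500 bp, 38.6% at 500 to 1000 bp, 28.2% at 1000 to 2000 bp, 18.6% at 2000 to 4000 bp and 13.5% at 4000 to 6000 bp. Copies were not all separate targets, since 623 intervals lay over more than 1 of them and 3486 copies had another within 10 kb. Annotated loci that abut or overlap were each counted as a copy. Whether such loci are pieces of 1 insertion was not checked.

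Signal was concentrated in few copies. The median copy had a mean signal of 13.7 over the 6 libraries, with quartiles of 4.17 and 52.1, and the highest had 15286. The 10 highest copies held 7.34% of the signal and the 100 highest 26.8%. In contrast, 767 copies had 0 reads in all 6 libraries although an interval touched them, and 474 of these were below 500 bp. How reads that fit several copies, or that overlap a copy in part, were counted is not stated, so values of near-identical L1 copies are uncertain.

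Per length, the shortest class was the highest. The median signal per kb was 33.3 below 500 bp, 9.50 at 500 to 1000 bp, 7.39 at 1000 to 2000 bp, 6.21 at 2000 to 4000 bp and 5.12 at 4000 to 6000 bp, beside 9.89 for full-length copies under intervals. Summed over all copies, signal per kb below 500 bp was 243 and 164 in KO, 317 and 311 in ΔcIDR, and 238 and 257 in WT. At 4000 to 6000 bp it was 13.4 and 11.995 in KO, 24.1 and 16.0 in ΔcIDR, and 15.9 and 19.9 in WT. The order of the classes was thus the same in all 6 libraries. Truncated L1 loci outside intervals had that order in all 6 libraries too, so it is not particular to these copies. In WT those loci had 21.3 and 22.1 below 500 bp and 1.93 and 2.21 at 4000 to 6000 bp. At the length limit, the 136 copies within 100 bp below it had a median mean signal of 22.9, and the 163 full-length copies under intervals in the first 100 bp from it one of 28.4.

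A single copy led the list. The highest signal and signal per kb belonged to a 584 bp copy on chromosome 12 (109627126 to 109627710), of which intervals covered 64%. Its signal was 10958 and 8268 in KO, 18771 and 22048 in ΔcIDR, and 16483 and 15190 in WT. KO lay below WT in every library there, by a log2 change of −0.73 ± 0.31 (SE) that did not pass on the deposited scale (limma adjusted p = 0.22) and passed after centring (limma adjusted p = 0.011). Next came a 2876 bp copy on chromosome 12 (19911667 to 19914543). It had 2820 and 2546 in KO, 17561 and 13528 in ΔcIDR, and 8223 and 8903 in WT. That copy fell in KO by 1.67 ± 0.31 (SE) on the log2 scale (limma adjusted p = 3.8e-05). The shortest class was led by a 381 bp copy on chromosome 8 (43613417 to 43613798), wholly covered by an interval, with 4965 and 3576 in KO, 4548 and 4245 in ΔcIDR, and 4222 and 4650 in WT. Its genotypes overlapped.

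Only copies with a mean signal of at least 20 were tested, as part of a limma fit over all 433487 repeat loci past that level. They were 3791 of the 9119 and held 96.0% of the signal. The share tested was 39.7% below 500 bp, 36.4% at 500 to 1000 bp, 35.6% at 1000 to 2000 bp, 44.6% at 2000 to 4000 bp and 60.0% at 4000 to 6000 bp. The other 5328 copies together had a signal of 32847 and 29419 in KO, 46011 and 32232 in ΔcIDR, and 31401 and 37439 in WT. Their sums differed between KO and WT by −0.14 ± 0.15 (SE) on the log2 scale and between ΔcIDR and WT by 0.17 ± 0.29 (SE), both within the spread of the libraries.

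KO against WT asks what the loss of Alkbh5 does to m6A on these RNAs. Calls were made with limma at an adjusted p below 0.05. KO had more signal than WT at 40 of the 3791 tested copies (1.06%) and less at 203 (5.35%), 243 in all. Among all tested repeat loci 0.176% were higher and 1.91% lower, 2.09% in all. With the fit limited to a mean signal of at least 100, 1.24% of 1537 copies were higher and 11.6% lower, beside 0.292% and 5.11% of all 113492 loci. In all 243 called copies the KO and WT libraries did not overlap and the fitted change was at least 2-fold, and it reached 4-fold in 17 of the higher and 39 of the lower ones. The spread in this fit let only large changes pass, so the first 2 points largely follow from the call itself. The matching shares among all called loci were not computed. The intervals over the copies, counted in the other table from the same libraries, differed in the same direction for 40 of the 40 higher and 200 of the 203 lower copies. They overlap the copies and may count the same reads, so this is no independent check.

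The median copy was close to the median of all tested repeats. The median log2 change was −0.30 on the deposited scale, against −0.26 for all tested loci, and −0.049 after each library was centred on its median. Centring gave 120 higher and 244 lower copies, 364 in all (of all loci 1.31%, 2.13% and 3.44%). Higher calls made up 16.5% of calls on the deposited scale and 33.0% after centring. Centring, which raised every change of KO over WT by the same amount and so favoured higher calls, kept all 40 of these and 187 of the 203 lower ones. That share was 47.4% of 392 calls on the ERCC scale, 36.3% of 411 on the scale of repeat reads outside intervals, 37.8% of 402 with edgeR and TMM factors, and 85.7% of 7 on the unmodified spike-in scale. The 243 calls depended on single libraries. Dropping KO replicate 1 gave 639 calls, whereas 55 and 33 were made when WT replicate 1 or WT replicate 2 was dropped. Dropping ΔcIDR replicate 1 or 2, which enter only the pooled spread, gave 153 and 158. Beside 364 centred calls, 102 and 153 were made on dropping KO replicate 1 or 2, and 219 and 153 on dropping WT replicate 1 or 2.

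**Figure D1:**
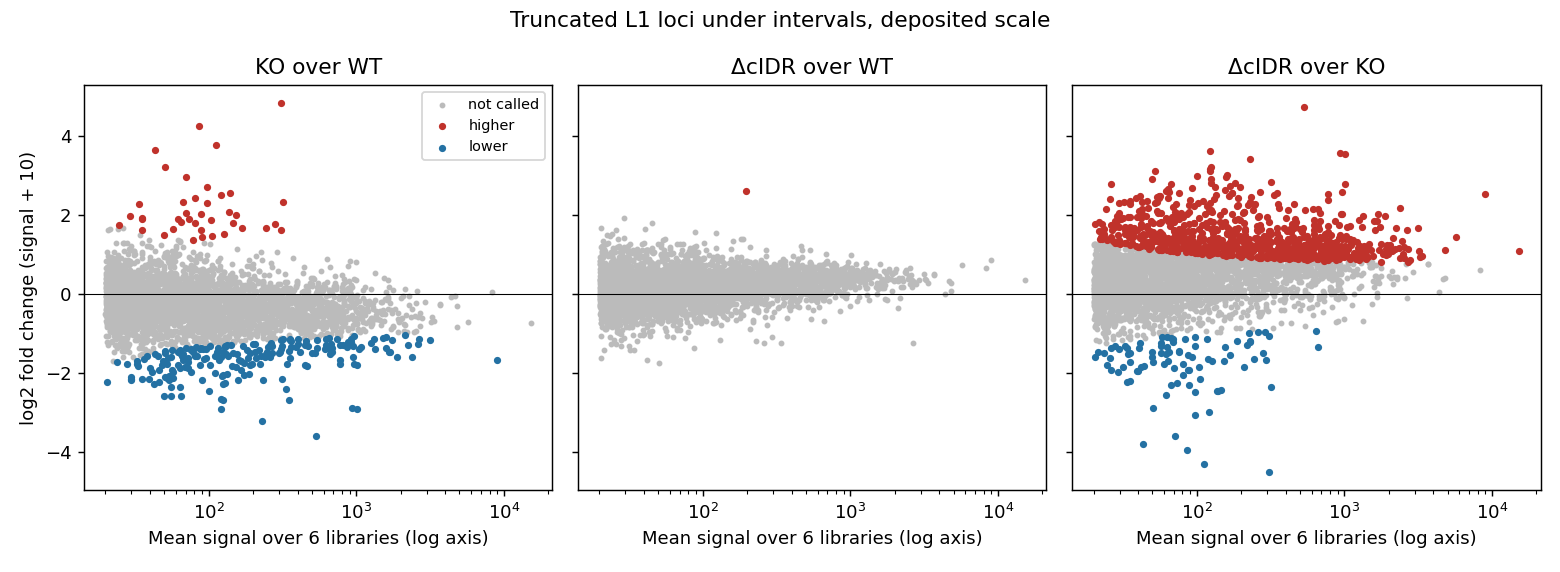
Fitted log2 fold change (signal plus 10) of each of the 3791 tested truncated L1 copies against its mean signal over 6 libraries, for KO over WT, ΔcIDR over WT and ΔcIDR over KO on the deposited scale. Red and blue points passed limma at an adjusted p of 0.05: 40 higher and 203 lower in KO over WT, 1 higher in ΔcIDR over WT, and 801 higher and 91 lower in ΔcIDR over KO.

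By length, the smallest share of copies called in KO was in the longest class. Of all tested repeat loci 0.176% were higher and 1.91% lower. At 4000 to 6000 bp, 3 of 704 tested copies were higher and 17 lower (0.426% and 2.41%). At 2000 to 4000 bp the counts were 15 and 52 of 861 (1.74% and 6.04%). At 1000 to 2000 bp they were 11 and 60 of 876 (1.26% and 6.85%). At 500 to 1000 bp they were 9 and 42 of 699 (1.29% and 6.01%), and below 500 bp 2 and 32 of 651 (0.307% and 4.92%). Full-length copies under intervals had 1 higher and 34 lower of 6272 (0.0159% and 0.542%). Truncated copies outside intervals had 128 higher and 1047 lower of 44538 (0.287% and 2.35%), of which 27990 were below 500 bp. There the longest class did not have the smallest share. Outside intervals 0.161% were higher and 1.74% lower below 500 bp, against 1.20% and 4.09% of 416 at 4000 to 6000 bp. Differences between these shares were not tested, because loci of 1 library are not replicates.

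The 4 copies with the largest fitted rise in KO lay together on chromosome 3, within 51 kb. A copy of 1160 bp (91049287 to 91050447) had a signal of 984 and 771 in KO, 26.7 and 32.0 in ΔcIDR, and 23.2 and 19.6 in WT. These values stand on 500 and 531 reads in KO and on 10 and 8 in WT. Both KO libraries were far above the other 4, and the log2 change from WT was 4.81 ± 0.39 (SE; limma adjusted p = 2.3e-29). A copy of 4130 bp (91079941 to 91084071) had 350 and 277 in KO, 6.67 and 6.39 in ΔcIDR, and 18.5 and 9.82 in WT (3.76 ± 0.44 SE over WT, limma adjusted p = 3.0e-13). The copy of 3577 bp (91076353 to 91079930) had 281 and 213 in KO, 6.67 and 6.39 in ΔcIDR, and 2.32 and 4.91 in WT (limma adjusted p = 7.6e-15). The copy of 3018 bp (91096834 to 91099852) had 128 and 128 in KO, 0 and 0 in ΔcIDR, and 2.32 and 0 in WT (limma adjusted p = 9.3e-08). The copies of 3577 and 3018 bp had 3 reads or fewer in WT, so no fold is given for them. In the copies of 4130, 3577 and 3018 bp every ΔcIDR and WT library lay below the minimum mean signal of 20, so they were tested only through their KO signal and had to differ.

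Repeats of other families rose there too. All 8 other tested repeat loci between the first and the last of these copies were also higher in KO, and 6 of them are ERVK, an endogenous retrovirus family. These 8 were tested only through their KO signal and so had to be higher, which makes their count no support. Signal summed over all other repeat loci of the stretch, untested ones included, was 3001 and 2129 in KO, 83.4 and 32.0 in ΔcIDR, and 67.2 and 56.4 in WT. The fifth largest rise was an 1832 bp copy on chromosome 10 (46835700 to 46837532), with 155 and 113 in KO, 13.3 and 6.39 in ΔcIDR, and 13.9 and 0 in WT (3.21 ± 0.49 SE over WT, limma adjusted p = 1.3e-07). It too was tested only through its KO signal.

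Some further rises lay near each other. On chromosome 6, 3 copies within 11 kb rose, among them one of 742 bp (107864886 to 107865628) with 232 and 148 in KO, 10.0 and 3.20 in ΔcIDR, and 16.2 and 14.7 in WT, likewise tested only through KO. On chromosome 10, 4 copies within 13 kb rose. The first of them, of 2933 bp (27662438 to 27665371), had 317 and 324 in KO, 50.01 and 51.1 in ΔcIDR, and 32.4 and 63.8 in WT (2.56 ± 0.39 SE over WT, limma adjusted p = 1.7e-07).

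Among losses, a 3033 bp copy on chromosome 4 (153708081 to 153711114) fell the most in KO. Its signal was 35.4 and 27.6 in KO, 1117 and 1026 in ΔcIDR, and 438 and 542 in WT. The log2 change was −3.59 ± 0.35 (SE, limma adjusted p = 3.0e-20), and the 3 genotypes did not overlap at this copy. Intervals covered 48.0% of it. A 4369 bp copy on chromosome 12 (109757625 to 109761994) had 23.6 and 23.2 in KO, 483 and 246 in ΔcIDR, and 266 and 336 in WT (−3.21 ± 0.37 SE, limma adjusted p = 8.6e-14). It was 1 of 3 copies that fell within a stretch of 8.26 kb. Another (109761992 to 109763102), which overlaps the end of the 4369 bp copy, had 7.87 and 5.81 in KO, 117 and 70.3 in ΔcIDR, and 67.2 and 120 in WT.

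On chromosome 5 a pair of neighbouring copies fell. The longer one, of 5250 bp (104927273 to 104932523), had 130 and 147 in KO, 2381 and 1240 in ΔcIDR, and 1017 and 1175 in WT (−2.90 ± 0.33 SE over WT, limma adjusted p = 9.7e-15). The shorter one, of 995 bp (104922640 to 104923635), had 163 and 102 in KO, 1704 and 1582 in ΔcIDR, and 1063 and 964 in WT (−2.88 ± 0.33 SE, limma adjusted p = 2.1e-14). A copy of 2287 bp on chromosome 16 (9753097 to 9755384) had 15.7 and 10.2 in KO, 237 and 147 in ΔcIDR, and 144 and 179 in WT (−2.90 ± 0.40 SE, limma adjusted p = 1.9e-09). In each of these 3 copies both KO libraries lay below all ΔcIDR and WT libraries.

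**Figure D2:**
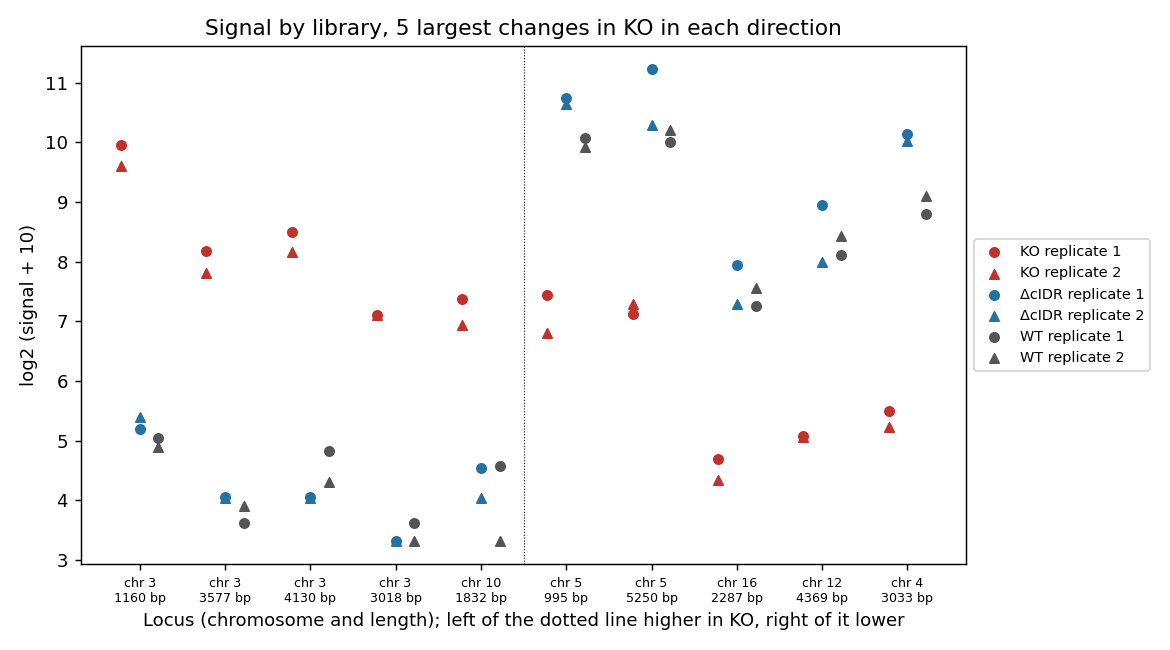
Signal in each of the 6 libraries, as log2 of signal plus 10, at the 5 truncated L1 copies with the largest rise and the 5 with the largest fall in KO over WT. KO points (red) stand above all others left of the dotted line, 984 and 771 at the first copy, and below all others right of it, 35.4 and 27.6 at the last.

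Most called copies had no called neighbour. Chained over gaps of at most 100 kb, the 40 higher copies formed 29 neighbourhoods and the 203 lower ones 148, of which 23 and 121 held a single copy. How often copies would have a called neighbour by position alone was not computed. Neighbourhoods of at least 3 copies numbered 3 for rises and 9 for losses. The largest, on chromosome 10 (78826250 to 78887512), held 10 lower copies among 14 tested in 61 kb. Summed over the 10, signal was 4910 and 4093 in KO, 17784 and 13631 in ΔcIDR, and 10886 and 12547 in WT. Of 31 other tested repeat loci there, the 4 uncalled copies among them, 4 were lower and 0 higher in KO, and their median log2 change was −1.01.

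The chromosome 5 pair belongs to a neighbourhood of 7 lower copies in 165 kb (104795598 to 104961093). Their summed signal was 453 and 380 in KO, 5318 and 3798 in ΔcIDR, and 2728 and 2785 in WT. Of 63 other tested repeat loci in it, 41 were lower and 0 higher in KO, with a median log2 change of −1.70, beside −1.92 for the 7 copies. By family these 63 were 25 ERVK loci, of which 17 were lower, 14 L1 loci that are no members (8 lower), 6 B2 loci (4 lower), 6 MaLR loci (3 lower), 5 ERV1 loci (3 lower), 4 loci of the class Unknown (4 lower), 2 simple repeats (2 lower) and 1 ID locus (0 lower). A pair of neighbourhoods on chromosome 9 (19021049 to 19083633 and 17386426 to 17445159) held 6 and 5 lower copies, with medians of −1.71 and −1.67. On chromosome 2 (19926547 to 20002585) 4 copies fell, with 76.8 and 71.1 in KO, 467 and 412 in ΔcIDR, and 371 and 415 in WT, and 9 of 19 other loci were lower.

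**Figure D3:**
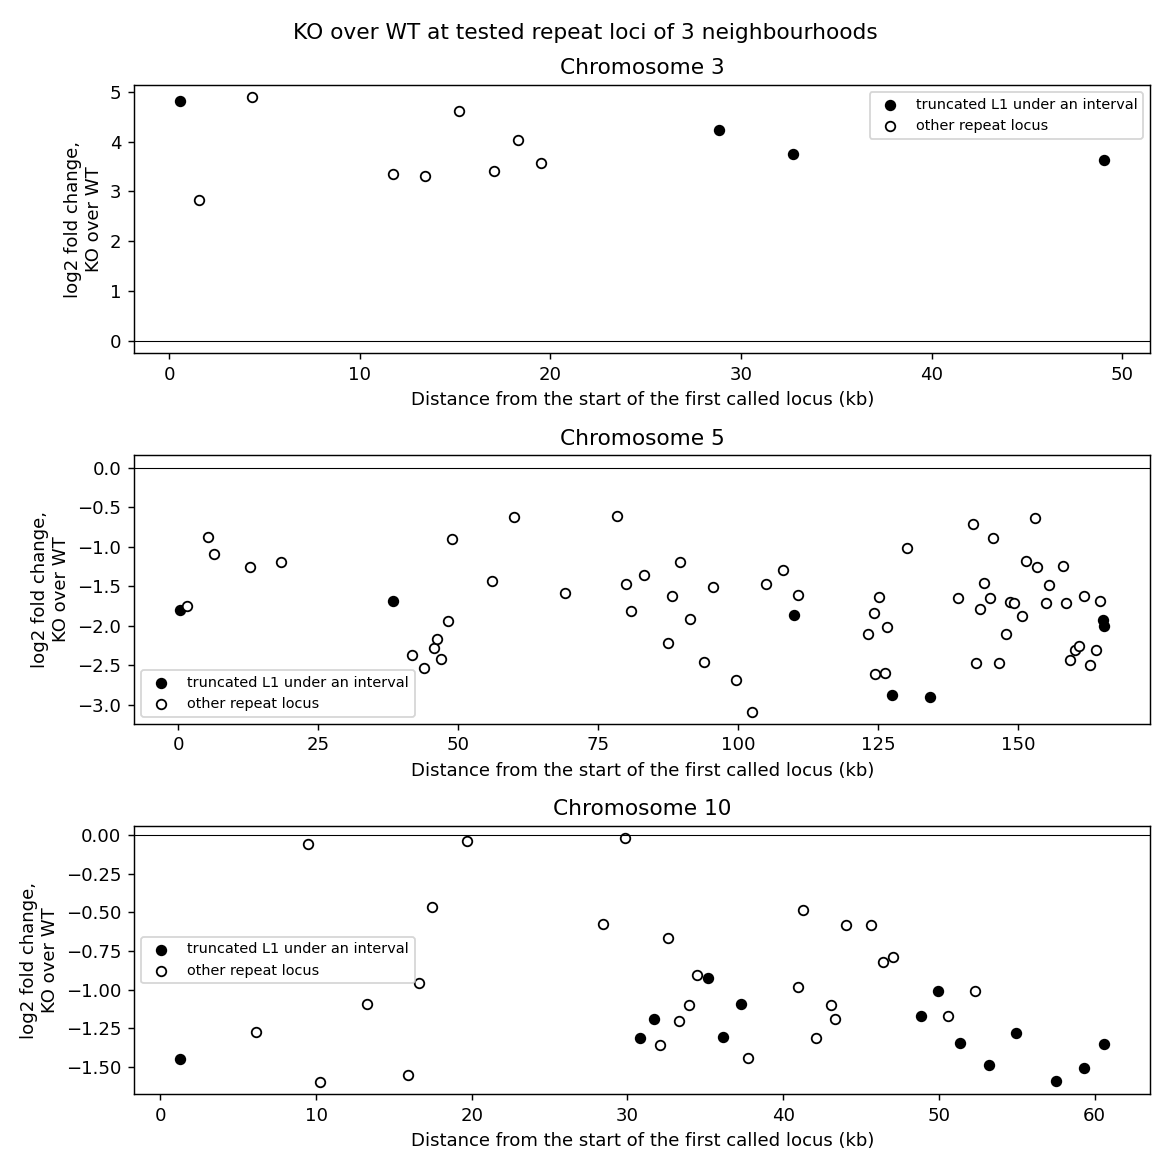
Log2 fold change of KO over WT (signal plus 10) at each tested repeat locus of 3 neighbourhoods, against its distance in kb from the start of the first called copy. Filled points are truncated L1 copies under intervals and open points other repeat loci. In the chromosome 3 panel all 4 copies and 8 other loci lie above 0, and the 8 were tested only through their KO signal. In the chromosome 5 panel all 7 copies and 63 other loci lie below 0.

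On chromosomes 6, 8 and 11 both KO libraries lay above both WT libraries once each library was centred. After centring, the 235 tested copies on chromosome 6 had medians of 0.13 and 0.32 in the KO libraries relative to the WT mean, −0.019 and −0.19 in ΔcIDR, and −0.0030 and 0.0030 in WT. The 170 on chromosome 8 had 0.12 and 0.25 in KO, −0.12 and −0.33 in ΔcIDR, and −0.042 and 0.042 in WT. The 124 on chromosome 11 had 0.072 and 0.19 in KO, 0.20 and −0.053 in ΔcIDR, and −0.024 and 0.024 in WT. The median centred change of KO over WT was 0.21, 0.18 and 0.11 for the copies on chromosomes 6, 8 and 11. For all tested repeat loci there it was 0.28, 0.25 and 0.065. On the deposited scale the median change of these copies was −0.040, −0.068 and −0.14. After centring, 26 of the 235 copies on chromosome 6 were higher and 6 lower in KO, beside 1.31% and 2.13% of all loci of all chromosomes. Chromosome 10 had 7 higher and 28 lower of 220, with a median change of −0.21 beside −0.087 for all tested loci there. Chromosome 9 had 6 and 24 of 180, with −0.17 beside −0.064, and chromosome 17 had 3 and 21 of 182, with −0.17 beside −0.036. Without chromosomes 6, 8 and 11, 219 calls were made on the deposited scale, beside 243. The part of chromosome copy number in this was not tested.

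**Figure D4:**
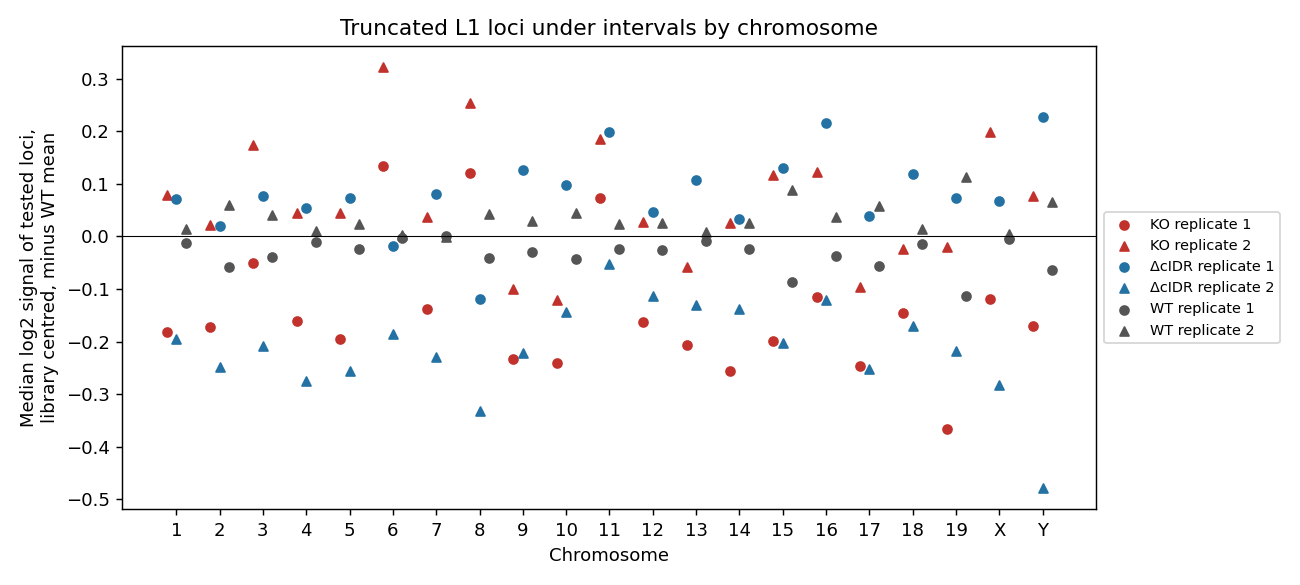
Median log2 signal of the tested truncated L1 copies of each chromosome in each of the 6 libraries, centred on the library's median over all tested loci and given relative to the WT mean. Both KO libraries (red) lie above WT on chromosomes 6, 8 and 11, at 0.13 and 0.32 on chromosome 6, and below both WT libraries on chromosomes 9, 10, 13, 17 and 18.

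ΔcIDR against WT asks whether the cIDR is needed for the enzyme's effect. With limma 1 copy (0.0264%) was higher and 0 were lower in ΔcIDR on the deposited scale, while 305 of 3791 copies had an unadjusted p under 0.05, beside 46652 of all 433487 loci, and edgeR also called 1. Among all tested loci 0.0694% were higher and 0.0173% lower, 0.0867% in all. With the fit limited to a mean signal of at least 100, 1 copy was higher and 1 lower, beside 0.157% and 0.037% of loci. The copy called, of 1380 bp on chromosome 13 (22074862 to 22076242), had 76.7 and 905 in ΔcIDR, 3.94 and 126 in KO, and 48.6 and 27.0 in WT. It rests on ΔcIDR replicate 2, and the KO replicates also differed widely (2.60 ± 0.41 SE over WT, limma adjusted p = 4.6e-06, and 0.24 after centring).

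The scale set the count here. Centring gave 1 higher and 13 lower copies (of all loci 0.0886% and 0.0717%, 0.16% in all), the ERCC scale 0 and 81, the scale of repeat reads outside intervals 0 and 18, and the unmodified spike-in scale 0 and 0. Dropping KO replicate 1 or 2, which are in neither arm, limma called 88 and 81 copies on the deposited scale, of which 79 and 72 were higher. The other 4 libraries left out in turn gave 0 to 2. Centred, leaving out a library gave 2 to 40 calls, with 40 when ΔcIDR replicate 1 was dropped. The median log2 change of the copies was 0.21, against 0.31 for all tested loci. None of the 243 copies called in KO passed in ΔcIDR against WT. Only 1 of all 3791 tested copies (0.0264%) and 0.0867% of all loci passed there, so an overlap was unlikely in any case. The 243 were chosen for their change in KO, so their KO medians are large by choice. At the 203 copies lower in KO the median log2 change was −1.56 in KO and 0.37 in ΔcIDR, both over the same WT libraries, and at the 40 higher ones it was 1.90 in KO and 0.014 in ΔcIDR. After centring these medians were −1.31 in KO and 0.077 in ΔcIDR at the lower copies, and 2.15 in KO and −0.28 in ΔcIDR at the higher ones.

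ΔcIDR against KO compares both mutants. On the deposited scale 801 copies (21.1%) were higher and 91 (2.40%) lower in ΔcIDR with limma, beside 18.7% and 0.726% of all tested loci (19.4% in all), and the median copy was 0.48 higher, against 0.56 for all loci. The share of copies higher in ΔcIDR was near that background. At a mean signal of at least 100, 42.0% of copies were higher and 2.41% lower, beside 37.9% and 0.698% of loci. Centring left 396 higher and 301 lower (of all loci 6.52% and 4.84%, 11.4% in all). Higher calls made up 89.8% of calls on the deposited scale and 56.8% after centring. That share was 17.5% of 1024 calls on the ERCC scale, 46.1% of 701 on the scale of repeat reads outside intervals, 49.5% of 685 with edgeR and TMM factors and 3.03% of 33 on the unmodified spike-in scale. Beside 892 calls, 244 and 426 were made on dropping ΔcIDR replicate 1 or 2. Beside 697 centred calls, 292 and 345 were made on dropping KO replicate 1 or 2. Dropping ΔcIDR replicate 1 there gave 246 higher and 338 lower. All 91 lower calls passed after centring as well, which lowered every change of ΔcIDR over KO and so favoured them.

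Some copies named above for KO recur here, and both comparisons share the KO libraries. The chromosome 4 copy (153708081 to 153711114) was 4.71 ± 0.35 (SE) higher in ΔcIDR on the log2 scale (limma adjusted p = 4.7e-37), and the 1160 bp copy on chromosome 3 (91049287 to 91050447) was lower, at −4.49 ± 0.39 (SE, limma adjusted p = 2.8e-26). A 1997 bp copy on chromosome 19 (53579627 to 53581624) had 327 and 214 in ΔcIDR and 11.8 and 13.1 in KO, with 76.4 and 93.2 in WT (3.61 ± 0.40 SE over KO, limma adjusted p = 9.4e-16). It lay below WT in KO (limma adjusted p = 1.7e-04) and above it in ΔcIDR, where the call was missed (limma adjusted p = 0.094). A 2106 bp copy on chromosome 2 (56752547 to 56754653) had 20.005 and 19.2 in ΔcIDR and 250 and 219 in KO, with 39.4 and 39.3 in WT (−3.04 ± 0.42 SE over KO, limma adjusted p = 1.5e-10).

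The spread between libraries differed by length. After centring, copies below 500 bp had medians between −0.048 and 0.015 in all 6 libraries relative to the WT mean. At 4000 to 6000 bp the medians were −0.19 and 0.18 in KO, 0.12 and −0.43 in ΔcIDR, and −0.085 and 0.085 in WT. Full-length copies under intervals had −0.071 and 0.26 in KO, 0.083 and −0.40 in ΔcIDR, and −0.10 and 0.10 in WT. In each genotype the gap between replicates was thus larger for long copies than for copies below 500 bp, and the genotypes overlapped. Truncated copies of 4000 to 6000 bp outside intervals had −0.073 and 0.029 in KO, −0.075 and −0.34 in ΔcIDR, and −0.045 and 0.045 in WT.

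**Figure D5:**
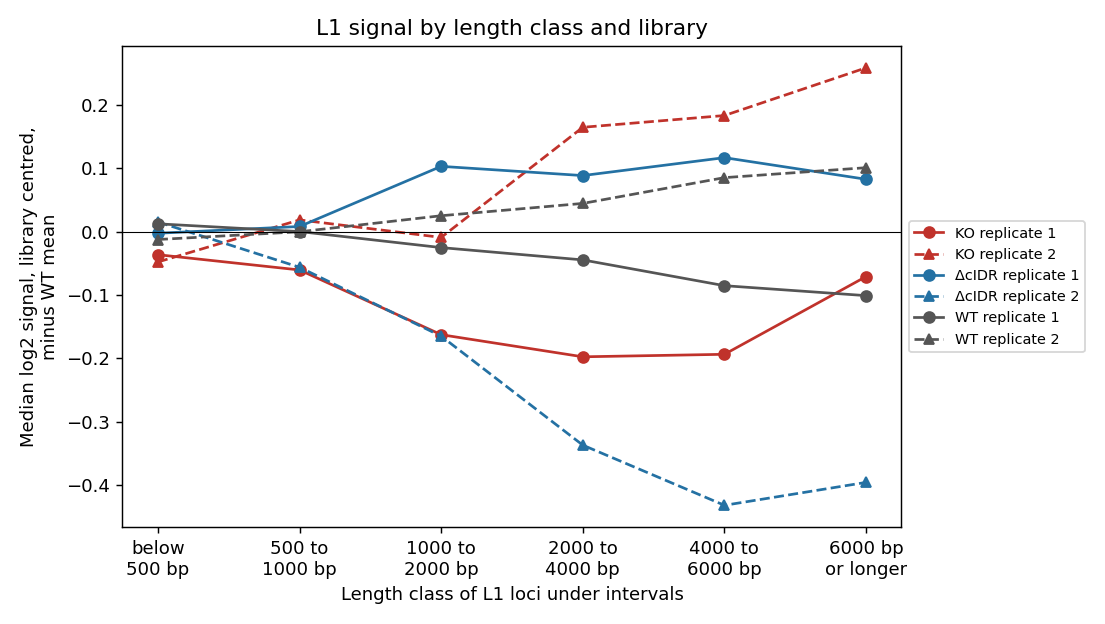
Median log2 signal of tested L1 loci under intervals by length class in each of the 6 libraries, centred on the library's median over all tested loci and relative to the WT mean. The 6 lines lie between −0.048 and 0.015 below 500 bp and spread to between −0.43 and 0.18 at 4000 to 6000 bp, where the replicates of each genotype lie on different sides of 0.

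A ratio within a library does not depend on its spike-in factor. The summed signal of the truncated copies under intervals over that of all full-length L1 loci was 1.00 and 0.896 in KO, 1.09 and 1.33 in ΔcIDR, and 1.16 and 1.02 in WT. On the log2 scale KO lay −0.20 ± 0.12 (SE) from WT, ΔcIDR 0.14 ± 0.17 (SE) from WT and ΔcIDR 0.35 ± 0.16 (SE) from KO. Both KO libraries lay below both WT libraries, by 0.20 against an SE of 0.12, and ΔcIDR overlapped WT. Sums rest on the copies with most signal. Taken as a median over tested loci instead, the KO difference from WT was −0.13. By class, copies of 2000 to 4000 bp had a ratio of 0.236 and 0.229 in KO, 0.299 and 0.330 in ΔcIDR, and 0.301 and 0.276 in WT. For that class KO lay −0.31 ± 0.07 (SE) from WT. Copies of 4000 to 6000 bp had 0.105 and 0.109 in KO, 0.130 and 0.126 in ΔcIDR, and 0.132 and 0.128 in WT, at −0.28 ± 0.04 (SE) for KO against WT and −0.03 ± 0.03 (SE) for ΔcIDR against WT. Below 500 bp it was 0.139 and 0.109 in KO, 0.125 and 0.179 in ΔcIDR, and 0.145 and 0.121 in WT, where all 3 genotypes overlapped. KO lay −0.10 ± 0.22 (SE) from WT below 500 bp, −0.11 ± 0.21 (SE) at 500 to 1000 bp and −0.18 ± 0.13 (SE) at 1000 to 2000 bp. The median centred log2 change of KO over WT was −0.0033 for tested copies of 4000 to 6000 bp and 0.070 for all tested full-length loci. An exact permutation test of 2 against 2 libraries cannot give a two-sided p below 0.333, and none is given here.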

How the data were processed

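Values of 6 libraries were used, read as immunoprecipitated samples among 12 in the series. Per the submitters' processing notes, the tools named are HISAT2, featureCounts, MACS2, fastp, bedtools, Picard and SAMtools, with the build GRCm39, with versions, roles and order not given in the sources used here. Dividing the deposited signal by 1 factor per library returned integers for 100% of values of either table (tolerance 1e-06). The authors' scale makes the m6A spike-in equal in all 6 libraries.

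Loci and intervals were intersected with bedtools 2.31.1, reading starts and ends as BED coordinates. Whether they count from 0 or 1 is not stated. Using R 4.3.3, limma 3.58.1 was fitted to log2 of signal plus 10, with 1 mean per genotype and a trend, for all repeat loci with a mean signal of at least 20. Adjusted p-values follow Benjamini and Hochberg over all of them, with calls at 0.05, and folds understate changes near 0. Standard errors borrow spread from loci of like signal. edgeR 4.0.16 was run on the recovered reads with its quasi-likelihood test. Other software was numpy 2.4.6, pandas 2.3.3, Python 3.11.15 and matplotlib 3.10.9. The limma step was tested on simulated data.

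Copies named are a selection from the 10 largest changes per direction and comparison whose libraries did not overlap, the 5 highest by signal and by signal per kb, and the highest of each length class. Neighbourhoods were described after calls had been seen. The members and lists were chosen with earlier results of these data known. Centred fits with a library left out, the replicate number or chromosomes changed were added after seeing the data. No GRCm39 sequence or gene annotation was used here.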

Additional observations from a re-analysis of the deposited data

How the results depend on the processing

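Counts of calls changed with the scale and with single libraries. In KO against WT the 243 calls were 392 on the ERCC scale, 411 on the scale of repeat reads outside intervals, 402 with edgeR and TMM factors, 7 on the unmodified spike-in scale (6 higher), 3 at a mean signal of at least 1 (2 higher) and 69 for copies covered over at least 50%. In ΔcIDR against WT the 1 call was 14 after centring (13 lower), 81 on the ERCC scale, 18 on the outside scale, 0 on the unmodified scale, 2 with a pseudocount of 2 (1 lower), 7 with one of 40, 0 and 2 at minimum means of 1 and 100, 14 with TMM factors and 0 for copies covered over 50%. In ΔcIDR against KO the 892 calls were 1024 on the ERCC scale, 33 on the unmodified, 701 on the outside scale and 685 with TMM factors, each with more lower than higher copies, 176 at a minimum mean of 1 and 292 for copies covered over 50%. The cause was not tested, except that lower minimums test more loci and the coverage limit keeps fewer copies.

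Leaving out 1 library at a time gave 33 to 639, 0 to 88 and 244 to 1295 calls for KO against WT, ΔcIDR against WT and ΔcIDR against KO, and 102 to 459, 2 to 40 and 292 to 684 after centring. An arm left with 1 library is assumed to vary like the others. The median of the copies minus that of all loci ranged from −0.15 to 0.081, from −0.24 to 0.062 and from −0.24 to 0.095, and the log2 ratio of truncated to full-length signal from −0.29 to −0.11, from 0.0028 to 0.29 and from 0.20 to 0.49.

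Replicate numbers gave no clear sign of pairing the libraries. Same-numbered deviations correlated at −0.048 (KO and ΔcIDR), 0.041 (KO and WT) and −0.11 (ΔcIDR and WT) over all tested loci, as a description. Over the tested copies these were −0.11, 0.050 and −0.13. Such values cannot show whether libraries shared a batch. With the replicate block 177, 1 and 714 copies were called, and 296, 10 and 607 after centring. The 5 largest changes per direction, picked from these same data, were fitted again under each other setting. The call and direction were kept in 329 of these fits of 1 copy, and the call was lost in 22. Of the 22, 9 were on the unmodified scale and 8 at a minimum mean of 1. None turned in direction. Depth limits the 5328 untested copies.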

Other observations

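Intervals over the copies were mostly L1 themselves. The interval with the largest overlap was made of L1 over at least 50% of its length for 8400 copies (92.1%), and of no family over that much for 492. By class the share with an L1 interval was 65.5% below 500 bp, 94.7% at 500 to 1000 bp, 98.5% at 1000 to 2000 bp and 99.4% and 99.5% in the longer classes. Other families were simple repeats (73 copies), ERVL (29), ERVK (28) and the class Unknown (26).

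In KO against WT on the deposited scale, 39 of 3433 tested copies under L1 intervals were higher and 178 lower, and of 282 under intervals without such a family 0 were higher and 19 lower, beside 0.176% and 1.91% of all tested loci. Of 8 tested copies under ERVL intervals 1 was higher and 0 lower, of 12 under ERVK intervals 0 and 1, and of 19 under Unknown intervals 0 and 3. In ΔcIDR against KO, where 18.7% of all tested loci were higher and 0.726% lower, 697 of the 3433 copies under L1 intervals were higher and 82 lower, and 75 of the 282 without such a family were higher and 6 lower. Of the 19 under Unknown intervals 12 were higher and 0 lower, of the 12 under ERVK intervals 7 and 1, and of the 8 under ERVL intervals 0 and 2. These small groups share neighbours and were not tested against the rest.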
